A study of Mus musculus with 6 samples.

Results

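The S100a genes encode small proteins that bind calcium through EF-hand motifs. The data described here are the levels of 10 of these genes, S100a3, S100a4, S100a6, S100a8, S100a9, S100a10, S100a11, S100a13, S100a14 and S100a16, in mouse dorsal skin during hair regeneration. The members were chosen by gene symbol, and all 10 were found among the 32285 features of the deposited count matrices. Wildtype male FVB mice aged postnatal days 55 to 57 were shaved and waxed, and single-cell RNA-seq libraries were made at 0 h and at 5 later times, 4 h and 16 h and then 2, 4 and 6 d after depilation. Each time point is 1 library that pools equal numbers of cells from 2 mice, so the animals cannot be separated and a value from 1 time point has no replicate. The samples carried no mutation or drug, and the 0 h library is the reference for the others. Of 61031 barcodes with 542895832 unique molecular identifiers (UMIs), 50502 cells were analysed, from 6520 to 11032 per library, with a median of 6036.5 to 10531 UMIs per cell. Any pair of libraries shared 7 to 47 cell barcodes.

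S100 proteins form dimers, and calcium binding opens a surface through which they contact other proteins. S100a8 and S100a9 pair to form calprotectin, which neutrophils store in large amounts and which keratinocytes make when the skin is wounded or inflamed. S100a10 is the exception that does not respond to calcium and holds annexin A2 in a complex at the membrane, while S100a11 binds annexin A1 and S100a6 binds Cacybp. S100a4 is known from motile cells and leukocytes, S100a3 from the cuticle of the hair shaft, S100a13 from the release of Fgf1, and S100a14 and S100a16 from epithelia.

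In the mm10 annotation all 10 genes lie on chromosome 3. S100a13, S100a14, S100a16, S100a3, S100a4, S100a6, S100a8 and S100a9 fill 181 kb, chr3:90514435-90695721. S100a11 (chr3:93520488-93526287) and S100a10 (chr3:93555080-93564643) lie 2.82 Mb further along, on the other side of the epidermal differentiation complex. The annotated span of S100a3 (chr3:90560578-90602702) contains S100a2, so reads of those 2 genes can overlap, and S100a11 has a processed pseudogene on chromosome 12 with which reads could be shared. S100a8 (chr3:90668978-90670035, plus strand) and S100a9 (chr3:90692632-90695721, minus strand) face each other.

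RefSeq promoters, 250 bases before to 50 bases after a transcription start in GRCm38.p6, were found for 8 of the 10 members and not for S100a10 and S100a14. They were searched on both strands for the AP-1 motif TGANTCA, the C/EBP motif TTGCNNCAA and the grainyhead-like motif AACNGGTT, which occur in 7.81%, 2.08% and 2.09% of 32851 mouse promoters of the same length. The 4 promoters below are shown because their genes carry the main patterns: the early peak across cell types (S100a11 and S100a16) and the divergence of S100a8 and S100a9. Capitals mark the motif matches.

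S100a11, chr3:93520246-93520545, plus strand: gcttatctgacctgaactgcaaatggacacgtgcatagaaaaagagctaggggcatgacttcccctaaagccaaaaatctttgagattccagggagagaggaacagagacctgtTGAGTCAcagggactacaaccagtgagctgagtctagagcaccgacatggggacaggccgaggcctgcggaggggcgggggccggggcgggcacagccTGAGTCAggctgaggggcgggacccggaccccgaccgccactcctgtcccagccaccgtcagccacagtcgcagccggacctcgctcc
S100a16, chr3:90540896-90541195, plus strand: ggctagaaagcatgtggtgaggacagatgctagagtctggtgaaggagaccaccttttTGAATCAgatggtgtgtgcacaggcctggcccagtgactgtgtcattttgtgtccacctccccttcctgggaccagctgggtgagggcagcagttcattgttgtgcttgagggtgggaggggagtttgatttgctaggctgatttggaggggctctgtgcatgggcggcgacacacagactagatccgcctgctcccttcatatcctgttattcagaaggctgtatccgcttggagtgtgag
S100a8, chr3:90668821-90669120, plus strand: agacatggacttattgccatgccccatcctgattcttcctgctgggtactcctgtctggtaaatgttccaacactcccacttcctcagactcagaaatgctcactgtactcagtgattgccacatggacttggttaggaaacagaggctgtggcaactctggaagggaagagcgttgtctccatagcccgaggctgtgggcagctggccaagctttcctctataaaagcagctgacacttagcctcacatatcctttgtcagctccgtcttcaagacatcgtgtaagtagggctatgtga
S100a9, chr3:90695672-90695971, minus strand: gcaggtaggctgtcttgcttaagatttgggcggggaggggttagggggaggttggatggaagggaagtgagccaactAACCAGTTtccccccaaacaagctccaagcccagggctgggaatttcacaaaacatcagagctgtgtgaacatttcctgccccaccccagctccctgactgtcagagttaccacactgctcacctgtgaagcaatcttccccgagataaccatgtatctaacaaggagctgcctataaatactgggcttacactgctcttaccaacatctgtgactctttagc

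The S100a11 promoter holds 2 AP-1 matches, 136 and 38 bases before the start, and 1 of the 2 S100a16 promoters holds 1, 192 bases before the start. The S100a9 promoter holds 1 grainyhead-like match, 173 bases before the start, as does 1 of the 4 S100a3 promoters, at 113 bases. No match to these letters was present in the windows of S100a8, S100a4, S100a6 and S100a13. A match describes the sequence only.

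Cells were sorted into 13 classes by marker genes, with the S100 genes left out of the clustering. The classes include the basal, suprabasal and granular layers of the interfollicular epidermis (IFE), the basal and suprabasal upper hair follicle (uHF), the outer bulge with the cells below it, the OB2 class of outer-bulge cells with companion-layer markers, T cells, Langerhans cells and melanocytes, each written with "-like" because the names rest on markers. Of these, 10 classes reached 20 cells in every library. Sebaceous gland-like cells reached it from 4 h on, and inner root sheath-like and fibroblast-like cells at 4 d and 6 d. Levels are given as CPM, the UMIs of a gene divided by all UMIs of the same class and library and scaled to 1e+06. UMIs come from the 3′ end and are not scaled by gene length, so the order of 2 genes' levels is not read. Intervals are exact 95% Poisson limits for CPM and exact binomial limits for shares of cells, and cover counting error only. For shares each cell with at least 2000 UMIs was thinned to 2000 UMIs. Cells with fewer UMIs, among them many T cell-like cells, were left out of the shares.

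**Figure D1:**
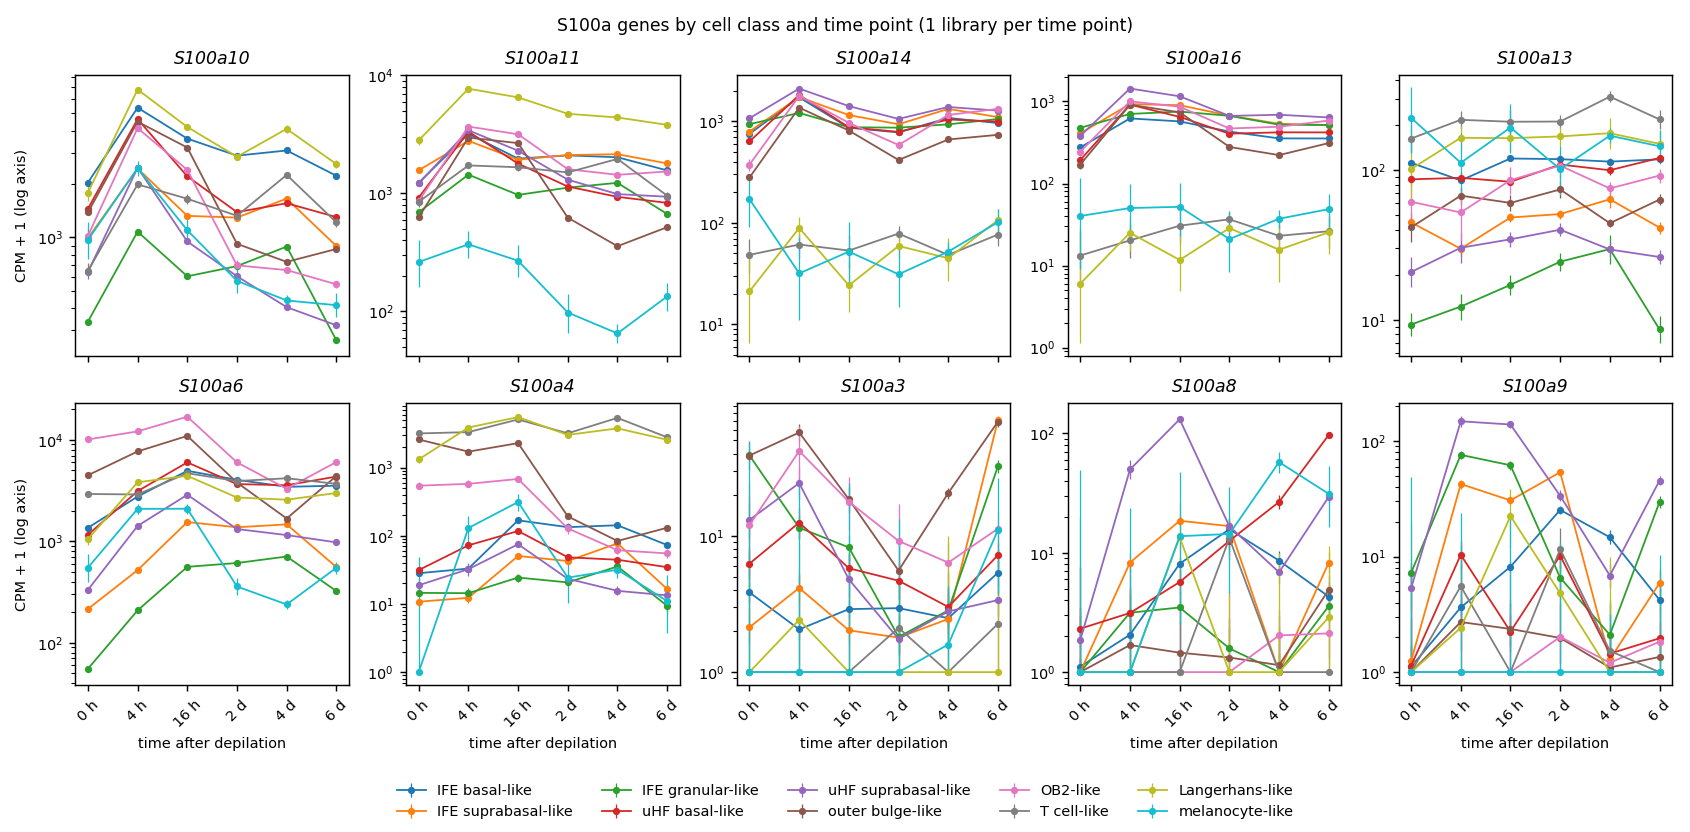
Levels of the 10 S100a genes in the 10 cell classes found in every library. The x axis gives the time after depilation and the log y axis the level as CPM + 1, each line is 1 class and error bars are exact 95% Poisson limits. S100a10 is highest at 4 h in 9 of 10 classes and S100a6 at 16 h in 9 of 10.

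S100a10, the annexin A2 partner, had its highest mean levels in Langerhans-like and IFE basal-like cells and its lowest in inner root sheath-like cells, at 255 and 243 CPM at 4 d and 6 d. In IFE basal-like cells its level was 2037 CPM at 0 h, 5379 CPM at 4 h, 3601 CPM at 16 h, 2887 CPM at 2 d, 3088 CPM at 4 d and 2224 CPM at 6 d. Outer bulge-like cells went from 1381 CPM at 0 h to 4484 CPM at 4 h and 3207 CPM at 16 h, then to 919, 727 and 860.0 CPM at 2 d, 4 d and 6 d. The makeup of the outer bulge-like class changed over these times, as given below for S100a4. This applies to the course of every member in that class. The 4 h library was the highest of the 6 in 9 of 10 classes. The exception was the T cell-like class, at 1988 CPM at 4 h and 2249 CPM at 4 d. The highest value was in Langerhans-like cells at 4 h, 6809 CPM against 1786 CPM at 0 h.

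The ratio of the 4 h to the 0 h level of S100a10 ran from 2.47 in IFE suprabasal-like cells to 4.05 in OB2-like cells, with a median of 3.21 over 10 classes, and was at least 2-fold in 10 of 10. Among all genes with a mean level of at least 10 CPM in a class, those at least 2-fold higher at 4 h made up 13.8% in IFE granular-like, 17.6% in outer bulge-like, 17.7% in IFE basal-like, 18% in uHF suprabasal-like, 18.7% in uHF basal-like, 20.1% in OB2-like, 20.2% in IFE suprabasal-like, 21.8% in T cell-like, 23.1% in Langerhans-like and 31.4% in melanocyte-like cells. The median gene stood 0.06 to 0.34 above its 0 h level on the log2 scale at 4 h across classes. By 6 d the ratio of S100a10 to 0 h had a median of 0.841 and was above 1 in 3 of 10 classes. With 1 library per time point these ratios have no replicate check and no test.

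S100a11, which binds annexin A1, followed nearly the same course. In IFE basal-like cells it was at 1229, 3198, 1969.7, 2098, 2024 and 1565 CPM from 0 h to 6 d. In outer bulge-like cells it was at 625 CPM (589.9 to 661.9) at 0 h and 2973 CPM (2911 to 3036) at 4 h, at 2666 CPM at 16 h, and was back at 622, 356 and 516 CPM from 2 d on. OB2-like cells differed in that the level stayed at 1436 to 1604 CPM from 2 d to 6 d against 861 CPM at 0 h, after 3684 CPM at 4 h. The makeup of this class changed, since it held 0 companion layer-like cells up to 16 h and 58 of 198, 636 of 858 and 311 of 602 cells of that kind at 2 d, 4 d and 6 d. The OB2-like cluster of a second clustering of follicle cells, examined after the values were seen, had S100a11 at 742, 4015, 3107, 1618, 1565 and 1641 CPM. The 4 h library was the highest in 9 of 10 classes, and the 4 h level was 1.41 to 4.76 times that of 0 h, at least 2-fold in 8 of 10.

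S100a14 and S100a16, the epithelial members, were at low levels in the immune and pigment classes. S100a14 lay at 47.2 to 77.4 CPM in T cell-like cells, 20.1 to 105 CPM in Langerhans-like cells and 30.1 to 169.9 CPM in melanocyte-like cells. In IFE basal-like cells it was at 753, 1722, 865, 777, 1080.0 and 962 CPM over the 6 libraries, and in outer bulge-like cells at 279, 1364, 811, 415, 662 and 736 CPM. In the thinned cells at 0 h, 75.6% of IFE basal-like cells (74.0% to 77.2%) held a UMI of S100a14 against 8.38% of T cell-like cells (4.77% to 13.4%), whose median depth was 2701.5 UMIs per cell against 8687 UMIs. The 4 h library was the highest in 7 of 10 classes for S100a14 and in 6 of 10 for S100a16.

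S100a16 was at its lowest at 0 h in 9 of 10 classes. In uHF suprabasal-like cells it measured 379.6, 1435, 1155, 665, 687 and 637 CPM, and in outer bulge-like cells 169, 912, 736, 278, 221 and 310.0 CPM. The uHF suprabasal-like class drew on follicle clusters whose balance changed over time, as given below for S100a8. The S100a16 level at 4 h was 1.48 to 5.39 times that at 0 h in the 8 classes with more than 3 UMIs at 0 h. It was at least 2-fold in 6 of them. Inner root sheath-like cells, present from 4 d, held the highest mean of both genes over their 2 libraries, with S100a14 at 1759 and 1469 CPM and S100a16 at 1085 and 1133 CPM at 4 d and 6 d. Immune classes stayed below 36 CPM of S100a16 in every library.

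**Figure D2:**
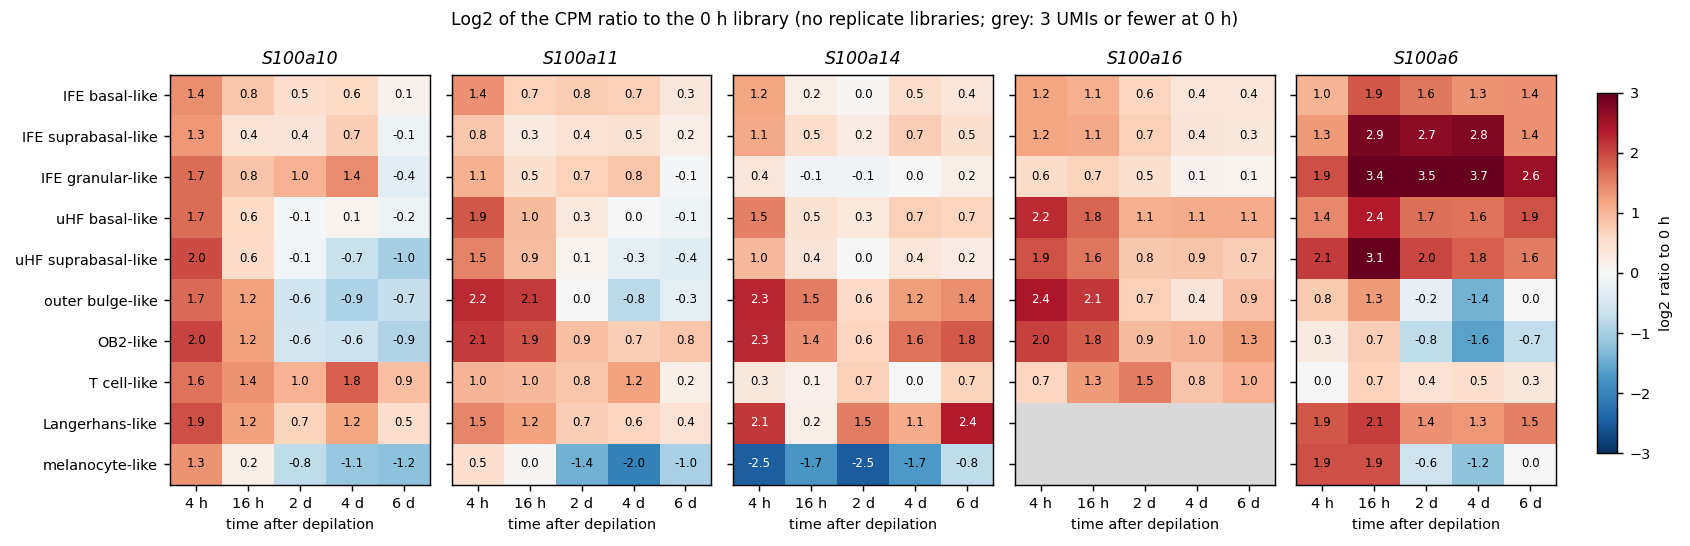
Log2 of the CPM ratio to 0 h for 5 members, 1 panel each, with the later libraries on the x axis and 10 cell classes on the y axis; red is higher than 0 h, blue lower and grey marks 3 UMIs or fewer at 0 h. S100a10 is at least 2-fold above 0 h in 10 of 10 classes at 4 h and S100a6 in 8 of 10 at 16 h.

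S100a6, or calcyclin, peaked later. In IFE basal-like cells it was at 1357 CPM at 0 h, 2758 CPM at 4 h and 4949.5 CPM at 16 h, then 4031, 3441 and 3530.3 CPM. The 16 h library was the highest in 9 of 10 classes, with IFE granular-like cells, at 707 CPM at 4 d, as the exception. OB2-like cells held more S100a6 than any other class by the mean over libraries, 10084 CPM at 0 h, 12107 CPM at 4 h and 16903 CPM at 16 h, followed by 5988, 3296 and 6039 CPM. The OB2-like cluster alone was at 9089, 12915 and 16835 CPM and then at 6785, 8005 and 8286 CPM. The 16 h to 0 h ratio was 1.60 in T cell-like cells and 10.3 in IFE granular-like cells, and at least 2-fold in 8 of 10 classes. Of all genes, 3.45% in IFE granular-like, 4.3% in IFE basal-like, 4.89% in IFE suprabasal-like, 10.2% in uHF suprabasal-like, 14.3% in OB2-like, 15.6% in uHF basal-like, 16.8% in outer bulge-like, 22.7% in T cell-like, 24.9% in Langerhans-like and 28.5% in melanocyte-like cells were at least 2-fold higher at 16 h. At 6 d the level in IFE basal-like cells was still 2.60 times that at 0 h.

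S100a4 split the tissue into high immune cells, a high outer bulge and low epidermis. T cell-like cells were at 3181, 3329, 5102, 3196, 5379 and 2794 CPM and Langerhans-like cells at 1323, 3886, 5528, 3028, 3777 and 2569 CPM. IFE basal-like cells stayed between 27.3 CPM at 0 h and 168 CPM at 16 h. Outer bulge-like cells were at 2594, 1719 and 2293 CPM at 0 h, 4 h and 16 h and at 192, 83.1 and 130.5 CPM at 2 d, 4 d and 6 d. OB2-like cells were at 544, 578 and 683 CPM and then at 128, 60.6 and 54.2 CPM. In the OB2-like cluster alone the early and late libraries overlapped, at 369.8, 299 and 676 CPM and at 179, 308 and 131 CPM, while companion layer-like cells had 40.9, 15.7 and 15.2 CPM at 2 d, 4 d and 6 d.

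The makeup of the outer bulge-like class changed over the same time points. By the follicle clustering it held 902 and 142 hair matrix-like cells at 4 d and 6 d and 1535 and 786 anagen outer root sheath-like cells. The hair matrix-like cluster had 8.61 and 9.58 CPM of S100a4 and the anagen outer root sheath-like cluster 24.1 and 48.5 CPM. The cluster that kept the outer bulge markers, examined after the values were seen, measured 3222, 3209 and 3986 CPM at 0 h, 4 h and 16 h and 841, 1901 and 439 CPM at 2 d, 4 d and 6 d. A cluster led by Cpa4 and Anxa3, present at 4 h and 16 h, measured 1871 and 2421 CPM. The libraries after 16 h were lower than the earlier ones in the outer bulge-like cluster as in the whole class, with a smaller gap.

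S100a13, linked to release of Fgf1, was at 111, 84.2, 118, 117, 113 and 117 CPM in IFE basal-like cells. Its ratio to 0 h was highest in IFE granular-like cells at 4 d, at 3.46, and lowest in melanocyte-like cells at 2 d, at 0.451. T cell-like cells held the most, 161 to 308 CPM, and IFE granular-like cells the least, 7.63 to 28.7 CPM. No time point was the highest in more than 4 of 10 classes.

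S100a8 and S100a9, the calprotectin pair, were near zero at 0 h, with 16 and 100 UMIs in 6520 cells. The 0 h library was the lowest in 10 of 10 classes for S100a8, ties at 0 included, and in 9 of 10 for S100a9. In uHF suprabasal-like cells S100a8 was at 0.863, 48.8, 130.2, 15.7, 5.86 and 28.4 CPM and S100a9 at 4.31, 147, 138, 32.6, 5.86 and 44.5 CPM. Both were thus high at 4 h and 16 h, with S100a8 at 16 h resting on 996 UMIs (122.3 to 138.6 CPM) and S100a9 at 4 h on 347 UMIs (132.1 to 163.6 CPM). The signal sat in few cells. At 16 h, 3.99% (2.64% to 5.75%) of thinned uHF suprabasal-like cells held a UMI of S100a8 and 6.5% (4.76% to 8.63%) one of S100a9, against 0 of 179 T cell-like cells, an exact upper limit of 2.04%. The class includes cells of a follicle cluster led by Flg, Sprr1b and Krt1 and named IFE granular-like. This cluster held 2351 cells over all follicle cells, at 272, 176, 389, 431, 512 and 571 from 0 h to 6 d. The follicle cluster named uHF suprabasal-like held 78, 79, 234, 474, 878 and 535. The uHF suprabasal-like class held 334, 264, 681, 918, 1426 and 1224 cells, and the share from each cluster was not counted. The balance of these clusters thus changed over time, and its part in the course of any member in this class was not tested. The Flg-led cluster carried 64.8 and 198.6 CPM of S100a8 and 195.5 and 209 CPM of S100a9 at 4 h and 16 h. The follicle cluster named uHF suprabasal-like had at most 15.0 CPM of S100a8 and 6.94 CPM of S100a9 in any library.

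Elsewhere the pair separated. IFE granular-like cells had S100a9 at 6.22, 74.9, 60.7, 5.57, 1.10 and 28.7 CPM and S100a8 at no more than 2.58 CPM. In uHF basal-like cells the reverse held at late times, where S100a8 went from 1.31, 2.13, 4.68 and 11.6 CPM to 25.6 CPM at 4 d and 96.1 CPM (90.5 to 102) at 6 d, while S100a9 stood at 0.963 CPM (0.481 to 1.72) at 6 d and at no more than 9.37 CPM earlier. The S100a8 UMIs of the 6 d library in this class came from 120 cells, with 15.1% in the top cell. The follicle cluster led by Col23a1 and Ntrk2 reached 170.4 CPM. Of the marker lists IFE basal scored highest for that cluster, with 7 markers up and 0 among its top 10 genes. Melanocyte-like cells had 0 UMIs of S100a9 in all 6 libraries. Their S100a8 stood at 0, 0, 12.8, 13.4, 56.4 and 30.1 CPM, on 0, 0, 2, 4, 95 and 12 UMIs. The 95 UMIs at 4 d lay in 57 of 273 cells. The class had 29 cells at 0 h, so a rise from 0 h is not read. At 6 d fibroblast-like and inner root sheath-like cells stood at 26.1 and 20.1 CPM of S100a8, on 3 and 8 UMIs. Of thinned melanocyte-like cells at 4 d, 10.2% (6.74% to 14.8%) held a UMI of S100a8, against 0 of 462 T cell-like cells, an exact upper limit of 0.795%.

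Over all cells, those with a UMI of S100a8 numbered 12, 58, 147, 153, 163 and 246 from 0 h to 6 d and those with S100a9 41, 258, 285, 207, 46 and 156. Cells with both numbered 4, 36, 81, 49, 6 and 22. The share of S100a8 UMIs found in cells that also held S100a9 was 43.8% of 16 UMIs at 0 h, then 85.7%, 92.4% and 82.2% at 4 h, 16 h and 2 d, and 19.96% and 6.18% at 4 d and 6 d. Early S100a8 therefore came mostly from cells with both genes, and late S100a8 mostly from cells with S100a8 alone. In IFE basal-like cells at 4 d a single cell held 91 of 97 S100a8 UMIs and 173 of 175 S100a9 UMIs, so no level of that class is read at 4 d.

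**Figure D3:**
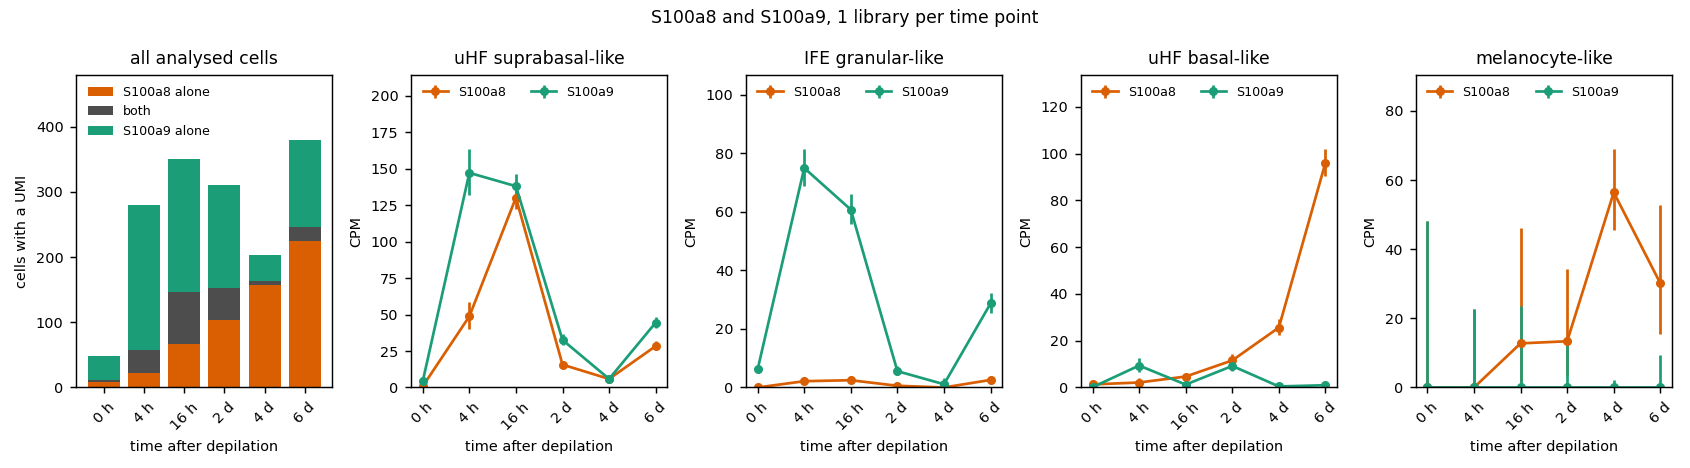
S100a8 and S100a9 by time after depilation (x axis). The first panel stacks the numbers of cells with a UMI of S100a8 alone, both or S100a9 alone, and the other 4 panels give CPM by class with exact 95% Poisson limits. Both genes are high at 4 h and 16 h in the uHF suprabasal-like class, which includes cells of the Flg-led cluster named IFE granular-like. S100a9 alone is high in IFE granular-like cells, and S100a8 alone in uHF basal-like cells at 4 d and 6 d and in melanocyte-like cells at 4 d.

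Neutrophils are rich in this pair, and their markers were therefore counted in the same cells. At a limit set after the values were seen, 95 cells held at least 20 UMIs of S100a8 or S100a9. All 95 held a keratin UMI and 92 at least 10. Retnlg, Mmp8, Csf3r, Ly6g, Ngp, Camp and Ltf had 0 UMIs in the 95 cells, Mmp9 had 4 UMIs in 3 cells, and Cxcr2, which keratinocytes can also express, had 71 UMIs in 22 cells. In IFE granular-like cells at 4 h, 1 of the 9 granulocyte markers was detected, Cxcr2 with 741 UMIs in 161 of 210 cells (99.3 CPM), where S100a9 was also highest. Among all 4 h barcodes, those with at least 2 granulocyte-marker UMIs held 35.8% of S100a8 and 44.18% of S100a9 UMIs. Leaving out such cells removed 129 of the 210 IFE granular-like cells at 4 h, a removal that rested on Cxcr2 alone. It lowered S100a9 in this class from 74.9 to 38.7 CPM at 4 h and from 60.7 to 52.2 CPM at 16 h. It lowered S100a8 in uHF suprabasal-like cells at 16 h from 130.2 to 113 CPM and S100a9 at 4 h from 147 to 129.8 CPM.

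S100a3, the hair cuticle member, was rare and concentrated in single cells. The inner root sheath encloses the growing hair shaft. Inner root sheath-like cells had 312 CPM (288.8 to 336.5) at 4 d and 815 CPM (728.5 to 908.2) at 6 d. Leaving out the 1 cell with the most UMIs, an alternative added after the data were seen, gave 127 and 534 CPM. Hair matrix-like cells had 42.4 and 387 CPM. Outer bulge-like cells had 37.8, 56.2, 17.5, 4.56, 19.6 and 67.7 CPM, of which 5 cells held 181 of 409 UMIs at 4 d and 6 cells held 448 of 574 UMIs at 6 d, all of them hair matrix-like. Without these cells the levels were 10.9 CPM at 4 d and 14.9 CPM at 6 d. T cell-like and Langerhans-like cells had at most 1.42 CPM. In IFE suprabasal-like cells the 6 d level was 69.3 CPM, and 3.02 CPM without 1 cell that held 703 UMIs.

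Just 27 of 50502 cells held at least 20 UMIs of S100a3, and they held 2422 of its 5035 UMIs (48.1%). They numbered 7 at 0 h, 1 at 16 h, 7 at 4 d and 12 at 6 d, with 0 at 4 h and 2 d. The limit of 20 UMIs was chosen after the values were seen. Padi3 converts arginine to citrulline in hair proteins. At 4 d and 6 d the cells over the limit had Padi3 at 189.8 and 105 CPM, against 0.656 and 1.01 CPM in the other cells. A Padi3 UMI was present in 4 of the 7 cells at 4 d and 6 of the 12 at 6 d. By the follicle clustering 5 and 6 of the cells over the limit were hair matrix-like and 2 and 3 inner root sheath-like. The other cells span every class, and no comparison within those clusters was made. Hair shaft markers summed to 3736 and 7313 CPM in the cells over the limit, against 51.6 and 37.4 CPM in the others. Inner root sheath markers were also higher in them, at 11796 and 7275 CPM, against 423 and 315 CPM in the others. The 7 cells at 0 h differed, since 6 were IFE granular-like, Padi3 was at 0 CPM and the hair shaft markers were at 7.22 CPM, against 31.5 CPM in the other cells.

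**Figure D4:**
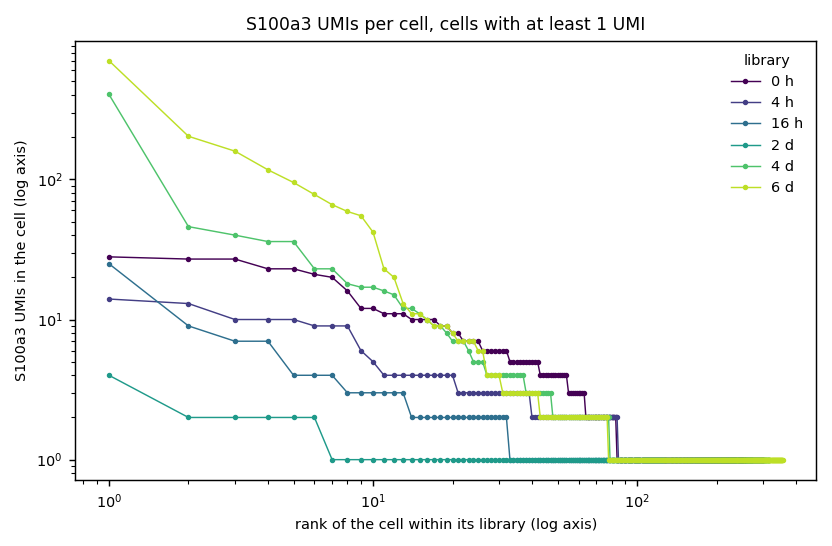
S100a3 UMIs per cell, with the rank of the cell within its library on the log x axis and its S100a3 UMIs on the log y axis, 1 point per cell with a UMI and 1 line per library. The 6 d and 4 d lines start highest, at 703 and 404 UMIs, and most cells hold 1 UMI.

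Ranked by the mean over libraries, S100a10 and S100a11 were highest in Langerhans-like cells (3717 ± 1771 and 4993 ± 1804 CPM, SD, 6 libraries), S100a4 and S100a13 in T cell-like cells (3830.4 ± 1110.4 and 220.1 ± 47.9 CPM), S100a6 in OB2-like cells (9069 ± 4973 CPM) and S100a8 and S100a9 in uHF suprabasal-like cells (38.3 ± 48.2 and 62.1 ± 64.3 CPM). The SD includes the differences between time points. For S100a8 and S100a9, the uHF suprabasal-like class includes cells of the Flg-led cluster described above. Along each gene's order of 13 classes, most of the 12 neighbouring pairs had overlapping ranges over libraries. The ranges did not overlap for 2 pairs of S100a16, 1 pair each of S100a3, S100a10, S100a11 and S100a14, and 0 pairs of the other 5 members. The same count was not made for all genes, so these counts do not set the members apart. S100a11 in Langerhans-like cells, at 2812 to 7710.5 CPM, lay above the next class in every library, IFE suprabasal-like cells at 1567 to 2788 CPM. S100a14 separated outer bulge-like cells, at 279 to 1364 CPM, from fibroblast-like cells, at 68.4 and 113 CPM.

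The course over the 6 libraries was tested with edgeR's quasi-likelihood test on a spline of time in hours, in each of the 10 classes and across all genes. The p-values measure the scatter of single libraries around a smooth curve. Of the members, 3 gene and class pairs passed a Benjamini-Hochberg adjusted p of 0.05. The size given for each is the linear part of the fitted curve over 0 h to 6 d, not the difference between its ends. Both of the melanocyte-like pairs had a negative linear trend. S100a11 was at 261, 369, 268, 96.9, 64.1 and 133 CPM, a linear log2 trend of -1.69 (edgeR quasi-likelihood adjusted p = 0.0107). S100a6 was at 549, 2087, 2092, 358, 238 and 547 CPM, a linear trend of -1.93 (edgeR adjusted p = 0.0253), with its high values at 4 h and 16 h. In this class 5.42% of genes were called. The class had 29 to 273 cells per library, and its 7 melanocyte markers summed to 4548 CPM at 0 h, 35210 CPM at 4 d and 26565 CPM at 6 d, a shift whose part in the 2 results was not tested.

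The other call was S100a4 in OB2-like cells, with a linear log2 trend of -4.13 (edgeR adjusted p = 0.0269), where 0.876% of genes were called. That call was lost in the OB2-like cluster alone, with a trend of -1.61 (edgeR adjusted p = 0.9998), where 0% of genes were called. S100a4 in outer bulge-like cells had a larger trend of -5.25 but an adjusted p of 0.0803 with edgeR's quasi-likelihood test, and 0.0178% of genes were called there. In the remaining 7 classes 0.0514% (T cell-like), 0.0161% (Langerhans-like) or 0% of genes were called and 0 members were, with 0 to 4 members per class at an unadjusted p under 0.05. DESeq2's likelihood ratio test called 16 pairs over the 10 classes, where it called 0.156% to 5.34% of all genes. With time on a log2 scale 16 pairs passed. They were 6 of the outer bulge-like, 5 of the melanocyte-like, 3 of the OB2-like, 1 of the uHF suprabasal-like and 1 of the uHF basal-like class, where 11.7%, 14.8%, 5.71%, 1.28% and 0.059% of all genes were called. The uHF basal-like pair was S100a8, with a linear trend of 5.53 on the log2 scale (edgeR adjusted p = 0.0436). Calls without the 4 d library numbered 0 and without the 0 h library 16. Those fits used a spline with 2 degrees of freedom in place of 3. The part of the left-out library is therefore not separated from that of the curve.

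Layers within a library could be compared over the 6 libraries, with the library as a block in edgeR's quasi-likelihood model. In the IFE, 6 of 10 members differed between suprabasal-like and basal-like cells, against 55.1% of all genes (26.8% higher and 28.3% lower). S100a16 and S100a14 were higher in the suprabasal layer, by 0.74 ± 0.051 and 0.35 ± 0.069 on the log2 scale (SE, 6 libraries, edgeR adjusted p = 1.11e-06 and 0.00147), each in 6 of 6 libraries. S100a6 (-1.90 ± 0.22), S100a4 (-1.45 ± 0.13), S100a13 (-1.17 ± 0.086) and S100a10 (-1.03 ± 0.071) were lower, each in 6 of 6 libraries. S100a9 at 1.60 ± 0.72 was not called with edgeR (adjusted p = 0.0967), and S100a11, S100a3 and S100a8 also did not pass. At 4 d 1 basal-like cell held 173 of 175 S100a9 UMIs of its class. Without the 4 d library S100a9 was called at 2.11 (edgeR adjusted p = 0.00456).

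In the uHF the same 2 members were higher and the same 4 lower in the suprabasal-like class, and 2 further members were called, so that 8 of 10 passed against 59.1% of all genes (28.7% higher and 30.4% lower). S100a16 was higher by 0.92 ± 0.068 and S100a14 by 0.65 ± 0.083. S100a9 was higher by 4.34 ± 0.69 (edgeR adjusted p = 0.00197) and S100a11 by 0.38 ± 0.073 (edgeR adjusted p = 0.000927), each in 6 of 6 libraries. S100a13 (-1.57 ± 0.11), S100a6 (-1.37 ± 0.11), S100a10 (-1.25 ± 0.12) and S100a4 (-0.94 ± 0.11) were lower. S100a8 at 0.81 ± 1.3 was higher in 3 and lower in 3 of the 6 libraries. The uHF suprabasal-like class includes cells of the Flg-led cluster described above, while IFE granular-like cells are a class apart from the IFE suprabasal-like one. In both comparisons the share of members called is near that of all genes, so the counts do not set the members apart.

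The difference between the IFE and uHF layer differences passed for 1 of 10 members, S100a9 at -3.55 ± 1.1 (edgeR adjusted p = 0.0486), against 12.7% of all genes. That call was lost without the 0 h, 16 h, 2 d, 4 d or 6 d library, with adjusted p between 0.0592 and 0.178.

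Outer bulge-like cells differed from IFE basal-like cells in 7 of 10 members, against 32.3% of all genes (15.8% higher and 16.5% lower). The comparison covers the whole class, whose makeup changed over time. By the follicle clustering, 178 of its 2670 cells at 4 d were outer bulge-like, 1535 anagen outer root sheath-like and 902 hair matrix-like. At 6 d 397 of 1392 cells were outer bulge-like. The outer bulge-like cluster alone was not tested. S100a3 was higher, by 3.37 ± 0.51 on the log2 scale (edgeR adjusted p = 0.00146), in 6 of 6 libraries. Without the S100a3-rich cells of 4 d and 6 d the difference was 2.80 ± 0.58 (edgeR adjusted p = 0.00705). S100a9 (-3.97 ± 0.80), S100a8 (-3.26 ± 0.94), S100a11 (-1.39 ± 0.41), S100a10 (-1.31 ± 0.31), S100a13 (-1.26 ± 0.17) and S100a14 (-0.94 ± 0.18) were lower. From 0 h to 6 d outer bulge-like cells held 0, 5, 6, 3, 2 and 3 UMIs of S100a9. Of S100a8 they held 0, 2, 2, 1, 3 and 33 UMIs. IFE basal-like cells at 0 h held 3 UMIs of each gene, so the sizes for this pair rest on low counts. S100a8 and S100a11 lost the call in 4 and 4 of the 6 fits that left out a library. Without the 4 d library, where 1 IFE basal-like cell held most UMIs of the pair, S100a9 was at -3.05 (edgeR adjusted p = 0.00669) and S100a8 at -2.34 and not called (edgeR adjusted p = 0.0825). S100a4, at 2.37 ± 1.3 with an adjusted p of 0.194 by edgeR, was higher in 5 of 6 libraries, with a log2 ratio of 6.52 in the library where it was most so and -0.77 in the one where it was lower.

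**Figure D5:**
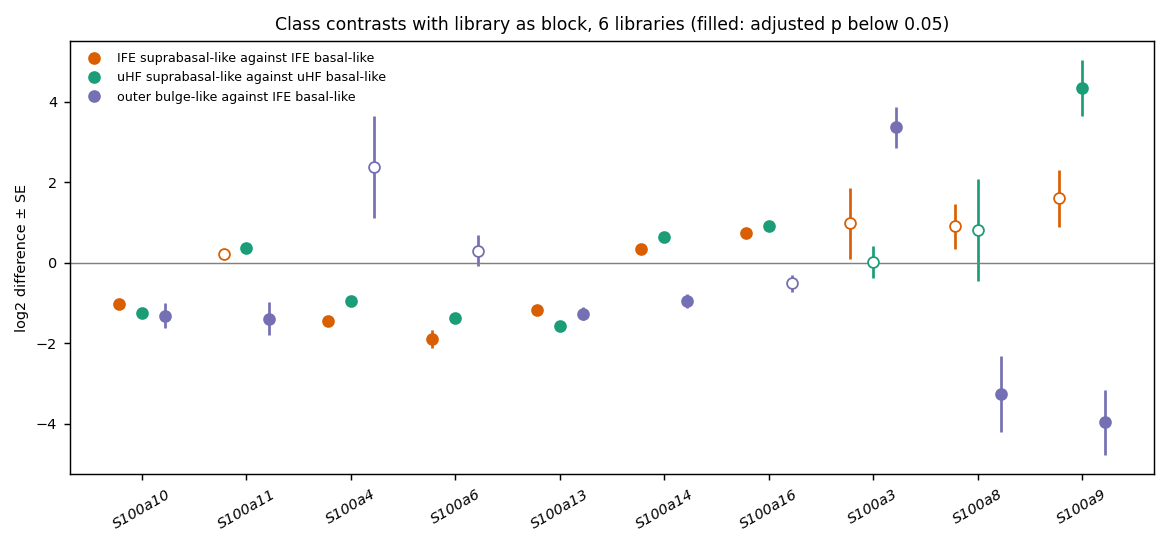
Log2 difference (y axis, edgeR estimate ± SE over 6 libraries) of each member (x axis) in the 2 layer comparisons and in outer bulge-like against IFE basal-like cells; filled points passed an adjusted p of 0.05. S100a16 and S100a14 lie above 0 and S100a10, S100a6, S100a4 and S100a13 below 0 in both layer comparisons.

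Genes that work with the members were read from a list of 14 binding partners. In the IFE 9 of them were tested, of which 3 were higher and 4 lower in the suprabasal layer, beside the 26.8% and 28.3% of all genes given above. Anxa2, the partner of S100a10, had a difference of -0.24 ± 0.072 (edgeR adjusted p = 0.0157), smaller than the -1.03 of S100a10, and Anxa1, the partner of S100a11, one of 0.68 ± 0.067 (edgeR adjusted p = 1.18e-05). Over time Anxa2 in IFE basal-like cells was at 1616, 3420.3, 2487, 2089.7, 2581 and 2141 CPM, with the highest value at 4 h like S100a10. Fgf1, whose export S100a13 assists, was higher in outer bulge-like than in IFE basal-like cells by 5.84 ± 0.87 (edgeR adjusted p = 0.0014), while S100a13 was lower there.

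S100 fused-type genes, which carry an S100 domain in a large barrier protein, are neighbours of S100a11 and S100a10. In the uHF 4 of 5 tested were higher in the suprabasal-like class, against 28.7% of all genes. The log2 differences were 7.94 for Flg, 8.96 for Rptn, 5.25 for Flg2 and 4.73 for Hrnr. In the IFE 1 of 4 was higher, Hrnr by 1.22 ± 0.30. The uHF class includes cells of the Flg-led cluster named IFE granular-like, while IFE granular-like cells are a class of their own. Flg, Flg2 and Hrnr were also among the markers that named granular-like clusters, so the uHF and IFE counts are not compared. Of the other S100 genes S100a1 was lower in both suprabasal layers (-1.08 and -0.72). It was higher in outer bulge-like than in IFE basal-like cells (1.69 ± 0.18, edgeR adjusted p = 0.000208).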

How the data were processed

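Raw UMI counts per gene and barcode were deposited by the authors as 10x matrices, made with Cell Ranger 6.1.2 on mm10 according to the submitters' processing notes. The deposited counts of all 6 libraries were used. Cells with 500 to 7000 genes and at most 10% mitochondrial UMIs were kept (55177 of 61031), and 4675 predicted doublets (scrublet, scanpy 1.11.5) were removed. Cells were clustered with Seurat 5.3.0 at resolution 0.2 (follicle cells again at 0.4) without the S100 and listed genes, and clusters were named from marker lists. Libraries held 72634390 to 112370376 UMIs in all barcodes and 65877606 to 95672793 in analysed cells, which were summed per library and class of at least 20 cells. Sums were tested across all genes in R 4.3.3 with edgeR 4.0.16 (TMM, quasi-likelihood, Benjamini-Hochberg). Time was a natural spline of hours with 3 degrees of freedom, or 2 with a library left out. Class contrasts had the library as block. No test was made between 2 time points. DESeq2 1.42.0 was an alternative. Groups follow the labelled time points. The members, gene lists and tests were chosen with earlier results of these data known. Members were named because the list fixes them, and cells rich in S100a3, S100a8 or S100a9 after their values were seen. Scripts were tested on simulated data.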

Additional observations from a re-analysis of the deposited data

Results flagged for a closer look

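In the main fit the S100a9 layer difference (suprabasal-like minus basal-like) was called as different between the IFE and the uHF. It was not called without the 0 h, 16 h, 2 d, 4 d or 6 d library. Nor was it called without the library block, with no filter on low counts or at doubled clustering resolution. In the joint fit of both it was 1.11 on the log2 scale in the IFE and 4.66 in the uHF (1.60 and 4.34 when each was fitted alone), and the IFE difference minus the uHF difference was -3.55 ± 1.1 (SE, edgeR's quasi-likelihood test with the library as block over 24 sums, adjusted p = 0.0486). S100a9 was higher in the suprabasal-like class in 5 of 6 libraries in the IFE and in 6 of 6 in the uHF. In the IFE the library that went the other way was 4 d, where 1 basal-like cell held 173 of 175 S100a9 UMIs. The uHF suprabasal-like class includes cells of the Flg-led cluster named IFE granular-like. At 4 h and 16 h S100a9 was higher in that cluster than in the follicle cluster named uHF suprabasal-like. In the IFE, granular-like cells form a class of their own, apart from the suprabasal-like class. The part of the single basal-like cell, and of this unlike makeup, in the difference was not tested.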

How the results depend on the processing

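Of 480 alternative values of the members in the class contrasts, 426 kept direction and call. The 3 pairs called over time became 16 on a log2 scale of hours and 14 on the rank of the time point. They became 16 with DESeq2's likelihood ratio test, 7 with no filter on low counts and 1 with predicted doublets kept. When a library was left out, with 2 degrees of freedom for the spline, they became 0 to 16. With no library block, the members called numbered 3 in the IFE, 3 in the uHF and 4 in the outer bulge comparison. For the difference between the layer differences the count was 0 without the block, with no filter and at doubled clustering resolution, and 0 to 2 with a library left out. Leaving out a library gave 6 to 8, 8 to 8 and 5 to 8 calls in the other comparisons. Values that changed sign were all uncalled. With a library left out, S100a3 ranged from -0.24 to 1.47 in the IFE, -0.28 to 0.28 in the uHF and -0.83 to 1.97 for the difference between the layer differences, and S100a8 from -0.14 to 1.68 in the uHF and -1.23 to 0.61 for that difference; S100a3 was also -0.0066, -0.26 and -0.28 in the uHF without 4 d, 4 h and 0 h, and S100a8 0.24 and 0.19 for the difference without 4 h and 2 d. S100a3 in the uHF was -0.11 with DESeq2 and S100a8 0.021 for the difference at doubled resolution. The cause was not tested, except that S100a3 in the IFE at 6 d rests on 1 cell. Among the 10 classes found in every library, the class with the highest mean was the same for 10 of 10 members with doublets kept, at doubled resolution or without granulocyte-marker cells, and for 7 of 10 with shares from cells thinned to 1000 UMIs. No paired analysis was possible because each time point has 1 library; the library block joins classes of the same library. The call of S100a4 over time in OB2-like cells was lost in the OB2-like cluster alone (-1.61 against -4.13, an alternative added after the data were seen). Melanocyte-like cells at 0 h (76513 UMIs) limit that class most.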

Other observations

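Across the 69 class and library sums, the levels of S100a14 and S100a16 ran together with a Pearson r of 0.96 on the log2 scale, S100a10 and S100a11 with 0.69, and S100a8 and S100a9 with 0.45. These correlations are descriptions without a test, because sums of 1 library share its depth and sums of 1 class share its cell type. Among 8408 genes compared, the one most like S100a16 was Hras (r = 0.94) and the one most like S100a14 was Eps8l2 (0.93). S100a10 was most like Plec (0.83) and Lmna (0.81), S100a11 was most like Clic1 (0.83) and also like Anxa2 (0.74), and S100a4 was most like Coro1a (0.82), an actin-binding gene of leukocytes. S100a9 was most like Sprr1b (0.74), a cornified envelope gene, S100a3 like the hair genes Prr9 (0.69) and Krt27 (0.69), S100a13 like Slc25a36 (0.87) and S100a6 like Tspo (0.70). S100a8 had no close match, with Bace2 at 0.55.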
